A study of Mus musculus with 29 samples.

Results

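The 10 genes described here code for neuropeptide precursors or mark classes of cortical interneurons. They are Sst, Cort, Npy, Vip, Crh, Cck, Pvalb, Penk, Pdyn and Tac1. The list is given by symbol, with no threshold on a measured value, and holds 10 of the 25746 genes in the count tables. All 10 passed the filter on low counts and were tested among 17031 genes.

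Transcript levels were measured by RNA sequencing in 29 mouse brain samples of 8 groups. C57BL/6J wildtype (WT) mice were non-stroked (4 samples), stroked (4 samples), stroked with acute tacrolimus from the day of stroke (3 samples) or stroked with tacrolimus delayed by a week (5 samples). Rag2-/- mice, which form no mature T and B cells, were non-stroked (3 samples) or stroked (3 samples). NSG mice, which additionally lack NK cells and carry a NOD background, were non-stroked (4 samples) or stroked (3 samples). Mice were 3 months old and of both sexes, and stroked tissue was taken 21 days after a photothrombotic stroke of the right sensorimotor cortex. Tacrolimus, a calcineurin inhibitor, came from a pump under the skin. Tacrolimus without stroke was not analysed here, and the untreated, acute and delayed groups were all compared with the same 4 non-stroked WT samples. In NSG mice, the strain background and the immune defect cannot be told apart. Control samples are called non-stroked because the study describes them both as contralesional tissue and as naive mice.

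The sample titles carry the prefix Imm2 (20 samples) or TF (9 samples). The labels do not say what the prefixes stand for, and they are treated here as 2 cohorts. All non-stroked samples belong to Imm2 and all delayed tacrolimus samples to TF, so cohort and delayed treatment cannot be told apart against non-stroked WT mice. Stroked WT mice came from both cohorts (2 samples each), as did acutely treated mice (1 sample in Imm2 and 2 in TF). Total counts per sample ran from 17789044 to 43403413, and the TF median of 23155303 was below the Imm2 median of 37223696. The summed level of 2 markers of cortical glutamatergic neurons (Slc17a7, Neurod6) lay between 710 and 1750 CPM (counts scaled to a common library size) in every sample. Markers of neighbouring regions varied. The sum of 5 markers of striatal projection neurons (Drd1, Drd2, Ppp1r1b, Adora2a, Rgs9) ran from 78.4 to 1320 CPM, and that of 3 choroid plexus markers (Ttr, Folr1, Clic6) from 2.37 to 1460 CPM. How far dissection differed between samples was not tested.

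Neuropeptides are cut from larger precursors, stored in dense core vesicles and released to act on G protein-coupled receptors. In the cortex, Sst, Vip and Pvalb mark largely separate classes of GABAergic interneurons, and many Sst neurons also carry Cort or Npy. Cck is made by a class of interneurons and also by pyramidal cells, and Penk, Pdyn and Tac1 are abundant in projection neurons of the striatum, which lies beneath the cortex. Many precursor genes respond to cAMP and calcium through the cAMP response element (CRE), which the factor CREB binds.

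Promoter sequences of the members were searched for this element because the CRE was defined in the Sst promoter and members were compared for changing together. The windows are RefSeq promoters on GRCm38.p6, from 250 bases before to 50 bases after each start, and both strands were searched for TGACGTCA and for the shorter motif TGACG or CGTCA, which the full element contains. Of 32851 promoters searched, 1.79% held the full element and 20.8% the shorter motif. Sst held the full element 48 bases before its start, and Cort, Vip, Tac1 and Cck held the shorter motif only. The windows of Npy, Pdyn and Pvalb held neither. Crh and Penk had no entry. Each sequence below is 30 bases, read 5′ to 3′ on the gene's strand, with the motif in capitals.
Sst, chr16:23890874-23890903 (minus strand, in an annotated exon): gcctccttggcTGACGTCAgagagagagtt
Cort, chr4:149126764-149126793 (minus strand, outside exons): ctccggcttgtgCGTCAccgcgtgagtgtg
Vip, chr10:5639127-5639156 (plus strand, outside exons): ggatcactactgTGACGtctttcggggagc
Tac1, chr6:7555006-7555035 (plus strand, in an annotated exon): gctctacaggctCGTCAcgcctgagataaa
Cck, chr9:121495724-121495753 (minus strand, outside exons): cctgctggactgCGTCAgcactgggtaaac
Tac1 held a further copy of the shorter motif 197 bases before its start. A match describes letters only and was not tested as a binding site. Members with the motif (Sst, Cort, Cck) and members without it (Npy, Pvalb) were both among those that were lower with delayed tacrolimus.

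The 10 genes differed widely in level. Per kilobase of exon, mean levels in non-stroked WT mice were 275 ± 18.7 CPM for Sst, 182 ± 24.8 for Cck and 172 ± 16.1 for Npy (SD, n = 4). Penk stood at 74.7 ± 19.7 and Pvalb at 49.8 ± 3.02 CPM per kilobase. The other 5 genes were lower. Cort reached 12 ± 1.49, Vip 7.74 ± 0.807, Pdyn 6.52 ± 0.795, Crh 3.57 ± 0.412 and Tac1 3.12 ± 0.602 CPM per kilobase. In this order the neighbours Cck and Npy, Vip and Pdyn, and Crh and Tac1 lay within their SDs of each other. All values that follow are CPM per gene, without division by length, and fold changes are log2 differences from 1 edgeR fit of all groups with their SE.

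**Figure D1:**
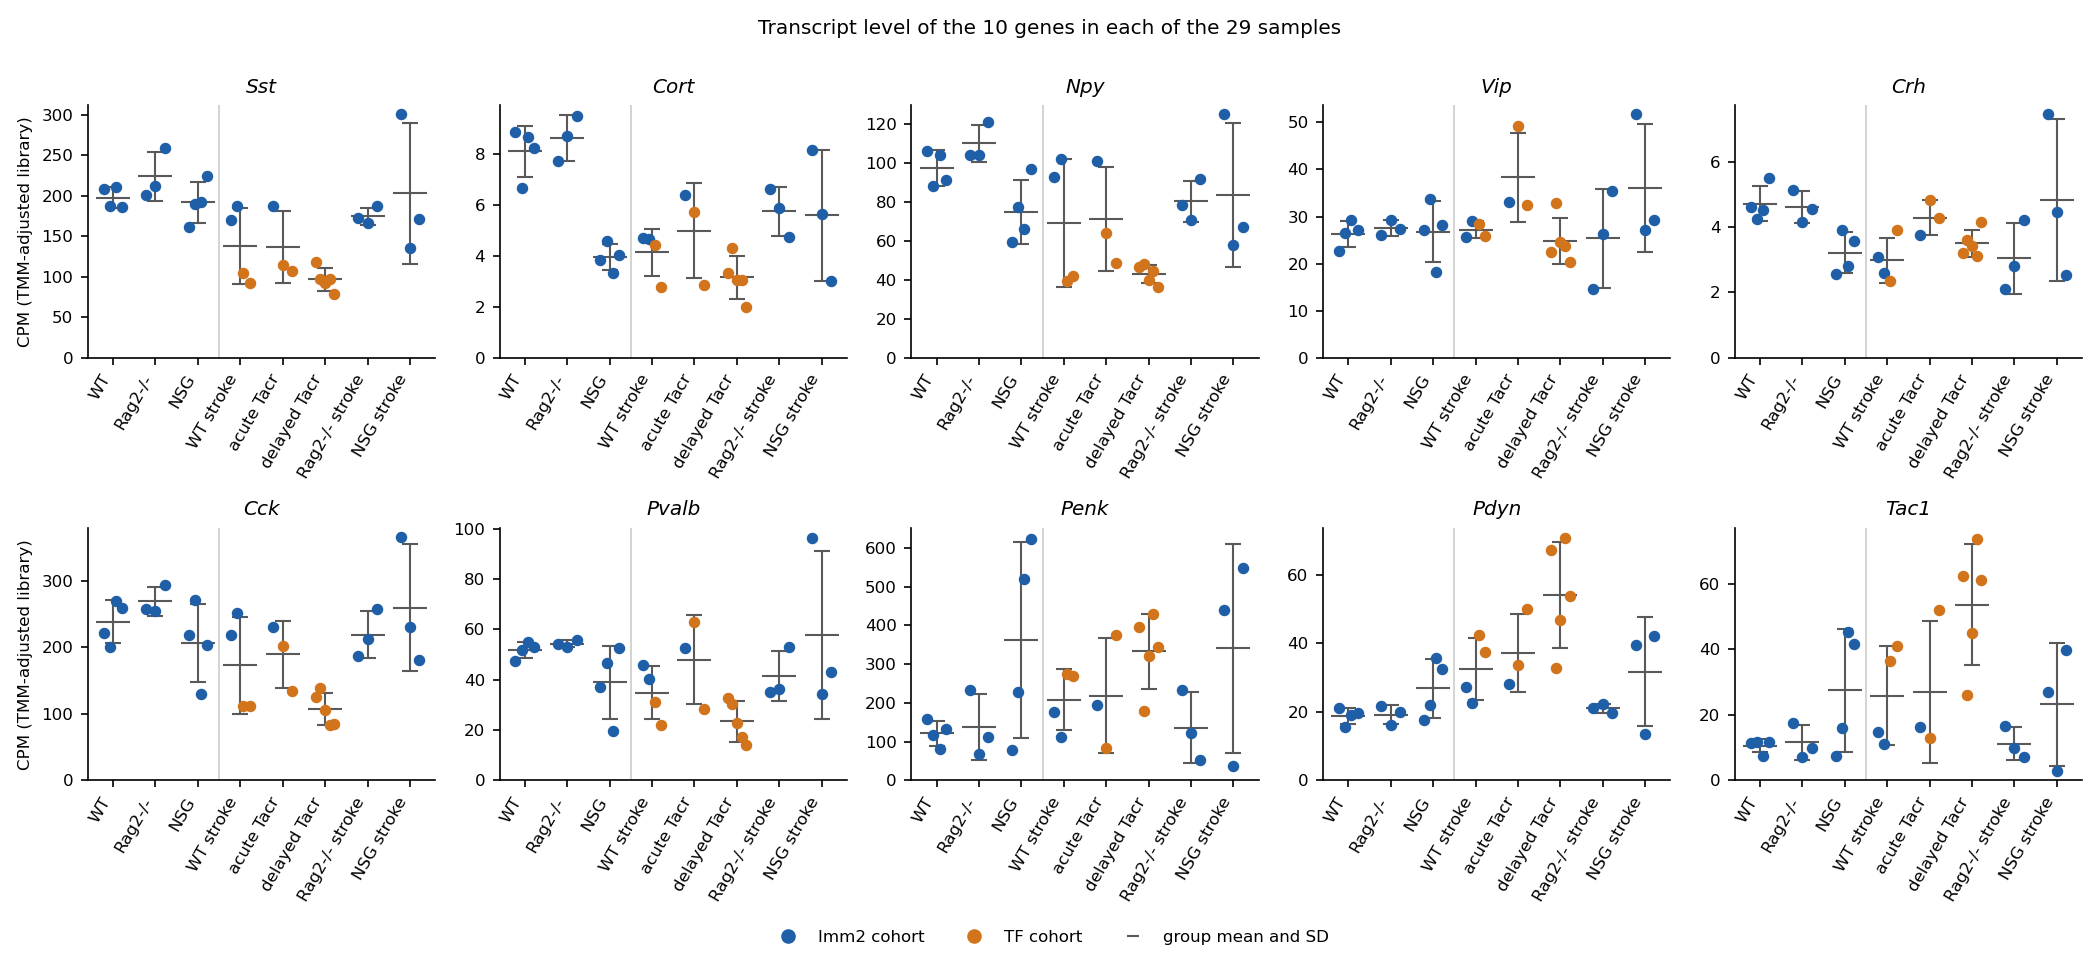
CPM of each of the 10 genes (vertical axes, linear, from 0) in the 29 samples by group, with blue points for the Imm2 cohort, orange points for the TF cohort and lines for the group mean and SD. Cort lies between 3.32 and 4.57 CPM in the 4 non-stroked NSG samples and between 6.64 and 9.5 CPM in the 7 other non-stroked samples.

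After stroke in WT mice, Cort and Crh fell and Pdyn rose, and the other 7 genes did not pass the test. The call was a Benjamini-Hochberg adjusted p below 0.05 in edgeR's quasi-likelihood test over all genes tested, where 26.9% of genes were called. The members' 3 of 10 is near that share. In bulk tissue, fewer cells of a type and less RNA per cell cannot be told apart. The labels number samples without naming animals, so p-values measure the spread between these samples.

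Cort codes for cortistatin, a peptide closely related to somatostatin that is made by a subset of cortical interneurons. It measured 8.86, 6.64, 8.67 and 8.22 CPM in the 4 non-stroked WT samples, and in stroked WT mice 4.7 and 4.67 CPM in Imm2 and 4.43 and 2.78 CPM in TF. All 4 stroked samples, from both cohorts, lay below all 4 non-stroked samples, which are all Imm2. Cort fell by 0.96 ± 0.252 on the log2 scale (adjusted p = 0.00689). With only Imm2 samples the log2 fold change was -0.78 with an adjusted p of 0.072, in a fit where 8.72% of all genes were called.

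Crh codes for corticotropin-releasing hormone, which in the cortex is made by interneurons. It was the least abundant member by CPM, at 4.61, 4.24, 4.51 and 5.5 CPM in non-stroked WT mice and 3.08, 2.58, 2.35 and 3.91 CPM in stroked WT mice. The groups did not overlap, although the highest stroked sample lay close to the lowest non-stroked sample. Crh fell by 0.66 ± 0.238 (adjusted p = 0.0423), and the call was lost when any sample of this comparison other than stroked sample 4 was left out. With only Imm2 samples Crh was at -0.73 and not called (adjusted p = 0.184). Its receptor Crhr1 also fell, by 0.44 ± 0.149 (adjusted p = 0.0303), while its binding protein Crhbp was at -0.35 (adjusted p = 0.0695).

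Pdyn, the precursor of dynorphins, measured 21.0, 15.6, 19.1 and 19.7 CPM in non-stroked WT mice. Stroked WT mice showed 27.3 and 22.6 CPM in Imm2 and 42.4 and 37.5 CPM in TF. Stroked samples lay above all non-stroked samples, with the larger differences in TF. Pdyn rose by 0.78 ± 0.287 (adjusted p = 0.0446), against 0.41 with Imm2 samples only (adjusted p = 0.469). The call was lost without each non-stroked WT sample and without each of the 2 TF samples.

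Sst, the marker of the somatostatin interneuron class, split by cohort after stroke. Non-stroked WT samples held 209, 188, 211 and 186 CPM, and stroked WT samples 170 and 187 CPM in Imm2 but 105 and 92.0 CPM in TF. The log2 fold change over all samples was -0.52 ± 0.217 (adjusted p = 0.0769), and within Imm2 it was -0.15. Npy, which codes for neuropeptide Y, split in the same way, with 92.5 and 102 CPM in the Imm2 stroked samples and 39.2 and 42 CPM in the TF stroked samples, against 87.8 to 106 CPM in non-stroked WT mice. Its log2 fold change was -0.50 over all samples and 0.00 within Imm2.

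Cck, the cholecystokinin precursor, stood at 201 to 270 CPM in non-stroked WT mice. It measured 218 and 252 CPM in the Imm2 stroked samples and 111 CPM in both TF stroked samples. The log2 fold change was -0.46 over all samples (adjusted p = 0.189) and -0.01 within Imm2. Pvalb, which codes for the calcium-binding protein parvalbumin of fast-spiking interneurons, measured 46.0 and 40.1 CPM in Imm2 and 31.1 and 21.9 CPM in TF after stroke. All 4 stroked samples lay below the non-stroked range of 47.5 to 54.9 CPM, yet the change of -0.57 ± 0.315 did not pass the test (adjusted p = 0.179).

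Vip, the marker of the vasoactive intestinal peptide interneuron class, varied little in this comparison. It stood at 26.3 ± 2.75 CPM in non-stroked WT mice (SD, n = 4) and 27.2 ± 1.79 CPM in stroked WT mice (SD, n = 4), a log2 fold change of 0.05 ± 0.221. Penk, the enkephalin precursor, was at 0.77 ± 0.621 and Tac1, the precursor of substance P and neurokinin A, at 1.29 ± 0.608, and neither passed the test (adjusted p = 0.373 and 0.117). In both genes the 2 TF samples lay highest, at 274 and 269 CPM for Penk and 36.6 and 41.1 CPM for Tac1, against at most 158 and 11.8 CPM in non-stroked WT mice.

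With delayed tacrolimus, 8 of the 10 genes differed from non-stroked WT mice, and 9 of 10 did not overlap. Of all genes tested, 55.2% were called in this comparison (27.6% higher and 27.6% lower) and 54.0% did not overlap. Sst, Cort, Npy, Cck and Pvalb fell, Penk, Pdyn and Tac1 rose, and Vip and Crh did not pass the test. All 5 treated samples are TF and all 4 controls Imm2. With the cohort as a covariate, an adjustment that rests on the stroked WT and acutely treated mice present in both cohorts, none of the 10 was called, while 9% of all genes were.

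The 5 lower genes had log2 fold changes between -1.03 and -1.35. Sst measured 118, 97.7, 92.5, 97.8 and 78.7 CPM after delayed treatment, all below the lowest non-stroked WT sample at 186 CPM, and fell by 1.03 ± 0.205 (adjusted p = 0.000194). Npy measured 46.4, 47.8, 39.8, 44.4 and 36.2 CPM and fell by 1.18 ± 0.249 (adjusted p = 0.000362). Cort, at 3.34, 4.32, 3.06, 3.03 and 1.98 CPM, fell by 1.35 ± 0.242 (adjusted p = 6.43e-05). For Sst and Npy the treated samples lay near the 2 untreated TF stroked samples (105 and 92.0, and 39.2 and 42 CPM), whereas for Cort untreated stroked samples of both cohorts were low.

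Cck, at 125, 138, 106, 83.8 and 84.2 CPM, fell by 1.15 ± 0.244 (adjusted p = 0.000376). Pvalb, at 32.8, 30.4, 22.9, 17.4 and 13.9 CPM, fell by 1.14 ± 0.3 (adjusted p = 0.00261). In both genes samples 4 and 5 were lowest. With the cohort as a covariate the log2 fold changes became -0.21 for Sst, -0.09 for Npy, -0.31 for Cck, -0.63 for Pvalb and -0.88 for Cort.

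Pdyn measured 67.3, 32.7, 46.8, 70.9 and 53.9 CPM after delayed treatment and rose by 1.53 ± 0.28 (adjusted p = 8.33e-05). Tac1 measured 62.4, 26.1, 45.1, 73.6 and 61.1 CPM and rose by 2.34 ± 0.604 (adjusted p = 0.00221), a ratio of 5.06. Penk measured 396, 178, 320, 429 and 344 CPM and rose by 1.45 ± 0.608 (adjusted p = 0.0458). Sample 2 was lowest for all 3 genes, and it also had the lowest striatal marker sum of the group, 499 CPM against 800 to 1070 CPM in the other 4 samples. The call for Penk was lost without each single sample of this comparison except sample 2.

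Striatal markers moved with these 3 genes. Their sum ran from 189 to 353 CPM in non-stroked WT mice, from 250 to 714 CPM in stroked WT mice and from 499 to 1070 CPM with delayed tacrolimus, and none of the defining markers was at 0. Of 17 striatal genes, 14 were higher and 0 lower with delayed tacrolimus (median log2 fold change 1.61, against 0.004 over all genes), among them Drd1 at 1.68 (adjusted p = 0.0178) and Ppp1r1b at 1.43 (adjusted p = 0.0212). With the mean log2 CPM of the 5 summed markers as a covariate, an alternative chosen after seeing the data, the log2 fold change of Penk became -0.18 (adjusted p = 0.249), that of Tac1 0.81 (adjusted p = 0.00489) and that of Pdyn 0.92 (adjusted p = 0.000293). Sst, Cort, Npy, Cck and Pvalb stayed called in that fit, at -1.08, -1.22, -1.16, -0.89 and -1.05. After stroke in WT mice that fit gave 0.46 for Pdyn and -0.63 for Crh, neither of them called (adjusted p = 0.0574 and 0.0699).

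**Figure D2:**
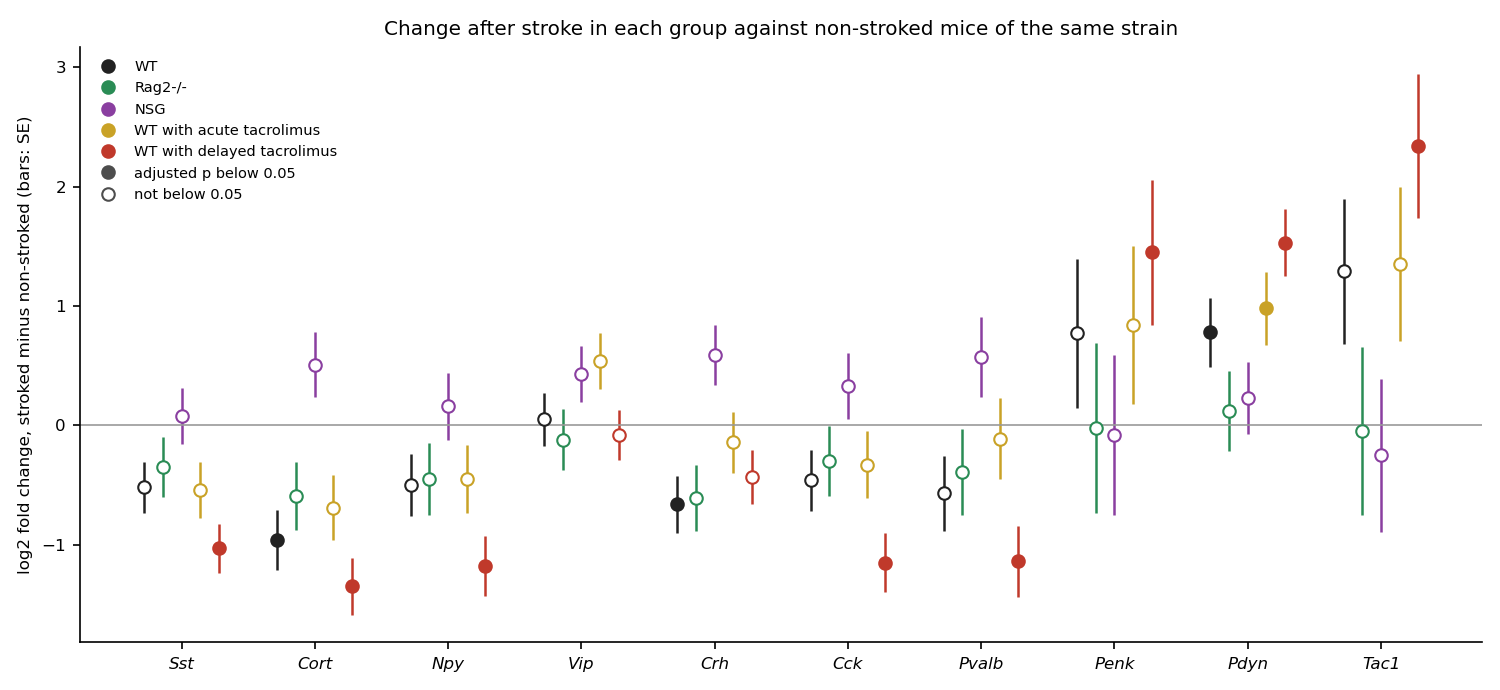
Log2 fold change (vertical axis, with SE bars) of the 10 genes after stroke in 5 groups, each against non-stroked mice of its strain, with filled points for an adjusted p below 0.05. With delayed tacrolimus 8 genes are filled, from -1.35 for Cort to 2.34 for Tac1, and in Rag2-/- and NSG mice none is.

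With acute tacrolimus, 1 of 10 genes was called against non-stroked WT mice, where 8.54% of all genes were. Groups did not overlap for 4 of 10 members (Pdyn, Cort, Tac1 and Vip), against 19.6% of all genes. Pdyn rose by 0.98 ± 0.306 (adjusted p = 0.0463), at 28.1 CPM in Imm2 and 33.6 and 50.1 CPM in TF. All 3 samples lay above the non-stroked WT range. The call was lost without treated sample 2 or 3 and without any non-stroked WT sample. Vip had its highest group mean in these mice, at 33.0, 49.3 and 32.5 CPM, above the non-stroked WT range of 22.6 to 29.2 CPM, without passing the test (log2 fold change 0.54 ± 0.237, adjusted p = 0.141). Cort was at -0.69 (adjusted p = 0.103) and Sst at -0.54 (adjusted p = 0.141).

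The tacrolimus groups were also compared directly with untreated stroked WT mice. With acute treatment 0 of 10 members and 0.0% of all genes were called by edgeR, 1 member (Vip) had an unadjusted p below 0.05 against 2168 of all genes, and DESeq2 called 0 members. With delayed treatment 0 of 10 members and 0.0% of all genes were called by edgeR, and 4 members (Pdyn, Npy, Cck and Sst) had an unadjusted p below 0.05 against 3455 of all genes. DESeq2 gave an adjusted p for 3 members only and called none of them, at 0.0861 for Sst, 0.454 for Penk and 0.056 for Cck. The other 7 had no adjusted p in DESeq2, so its count covers those 3 members alone. Within TF, where both groups have samples, the log2 differences of delayed treatment from untreated stroke were -0.02 for Sst, 0.08 for Npy, -0.05 for Cck and 0.45 for Pdyn.

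Delayed against acute tacrolimus gave 2 of 10 members, where 20.3% of all genes were called. Cck was lower with delayed treatment by 0.81 ± 0.261 on the log2 scale (adjusted p = 0.0307), and Pvalb by 1.03 ± 0.322 (adjusted p = 0.0274). Acutely treated mice showed 231, 202 and 134 CPM of Cck and 52.7, 63.1 and 28.3 CPM of Pvalb, and in both genes sample 3 overlapped the delayed group. Within TF the log2 differences were -0.61 and -0.92 and neither was called. The number of members called ran from 0 to 6 as single samples were left out, with 6 without acutely treated sample 3, 4 without delayed sample 2, and 0 without acutely treated samples 1 or 2 or delayed samples 3, 4 or 5.

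In Rag2-/- mice no member was called after stroke, where 8.23% of all genes were. By edgeR 1 member (Crh) had an unadjusted p below 0.05, against 3691 of all genes, and DESeq2 also called 0 members. All samples of this comparison belong to Imm2. Sst measured 201, 212 and 259 CPM without stroke and 173, 166 and 187 CPM after stroke, and Cort 7.7, 8.69 and 9.5 CPM without and 6.63, 5.88 and 4.72 CPM after stroke. Stroked samples lay below non-stroked samples for Sst, Cort, Npy and Pvalb (4 members, against 35.7% of all genes without overlap). The log2 fold changes were -0.35, -0.59, -0.45 and -0.39, with adjusted p from 0.234 to 0.589. The difference between the Rag2-/- and the WT response, tested as an interaction, called 0 of 10 members and 0.0% of all genes, with 0 members and 713 genes at an unadjusted p below 0.05 and 0 members by DESeq2.

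Stroked NSG mice gave no called member either, where 21.9% of all genes were called. By edgeR 1 member (Crh) had an unadjusted p below 0.05, against 6116 of all genes, and DESeq2 called 0 members. The 3 stroked samples differed strongly. Sample 1 held the highest level of the series for Sst (301 CPM), Npy (125 CPM), Vip (51.8 CPM), Crh (7.46 CPM), Cck (365 CPM) and Pvalb (96.2 CPM). Sample 2 held the lowest level of the series for Penk (35.9 CPM), Tac1 (2.74 CPM) and the striatal marker sum (78.4 CPM), and sample 3 lay at 547 CPM of Penk with a striatal sum of 1020 CPM.

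All 10 members overlapped between stroked and non-stroked NSG mice. Without stroked sample 3, 2 of 10 were called (Cort at 0.80 and Crh at 0.88), and without stroked sample 1 none was, with Cort at 0.13, Crh at 0.12 and Pvalb at -0.02 in place of 0.51, 0.59 and 0.57. The interaction of the NSG with the WT response called 0 members by edgeR, where 0.0294% of all genes were called, and 1 member (Cort) by DESeq2. At an unadjusted p below 0.05 stood 4 members (Cort, Crh, Pvalb, Cck) and 2167 of all genes. The differences were 1.47 ± 0.369 for Cort (adjusted p = 0.123), 1.25 ± 0.347 for Crh (adjusted p = 0.156) and 1.15 ± 0.46 for Pvalb (adjusted p = 0.321), and all 3 had the sign of a higher response in NSG mice. Without stroked NSG sample 1 they were 1.12, 0.80 and 0.57, none called, and without stroked NSG sample 3 they were 1.78, 1.56 and 1.33, with Cort and Crh called (adjusted p = 0.0127 and 0.0135).

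Without stroke, Cort was lower in NSG than in WT mice and was the only member called of 10, where 9.76% of all genes were called. NSG mice measured 3.83, 4.57, 3.32 and 4.02 CPM against 6.64 to 8.86 CPM in WT mice, and the groups did not overlap. Lack of overlap held for 2 of 10 members (Cort and Crh) and 21.8% of all genes. Cort was lower by 1.04 ± 0.252 on the log2 scale (adjusted p = 0.00739), which is 3.94 ± 0.518 against 8.10 ± 1.01 CPM (SD, n = 4 each). It was also lower in NSG than in Rag2-/- mice, by 1.13 ± 0.268 (adjusted p = 0.00806), as the only member of 10 where 6.33% of all genes were called. Both calls held in every leave-one-out fit and under every other setting tried, and all these samples belong to Imm2.

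Sst, which many Cort neurons also carry, was not called in the same mice. Non-stroked NSG mice held 162, 190, 193 and 224 CPM, and the log2 difference from WT mice was -0.04 ± 0.216. Per kilobase, the ratio of Cort to Sst lay between 0.0183 and 0.0256 in non-stroked NSG mice, between 0.0377 and 0.0472 in WT mice and between 0.039 and 0.0436 in Rag2-/- mice. The ratio did not overlap between NSG and either other strain. In stroked NSG mice it spread from 0.0186 to 0.0442.

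The precursors of the 2 related peptides are similar where the peptide is encoded, which bears on whether reads can be assigned to the right gene. The 39 coding bases compared, read 5′ to 3′ on the minus strand of GRCm38, are shown with the bases that differ in capitals.
Sst, chr16:23889732-23889770: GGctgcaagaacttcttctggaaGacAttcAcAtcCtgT
Cort, chr4:149125270-149125308: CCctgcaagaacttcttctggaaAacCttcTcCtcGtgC
Of these 39 bases 31 are identical and 8 differ, and 11 of 13 codons give the same residue. The longest identical run is 21 bases, a small part of exon lengths of 721 bases for Sst and 677 bases for Cort.

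Penk, Tac1 and Pdyn scattered widely in non-stroked NSG mice. Penk measured 77.6, 228, 520 and 622 CPM, against 81.3 to 158 CPM in WT mice, and Tac1 7.34, 15.9, 45.3 and 41.8 CPM, against 7.53 to 11.8 CPM. Neither passed the test (log2 difference 1.57 ± 0.632 and 1.38 ± 0.608, adjusted p = 0.124 and 0.167). The striatal marker sum of the same 4 samples was 210, 519, 988 and 1320 CPM. With the striatal markers as a covariate the differences were 0.09 for Penk and 0.03 for Tac1. Between non-stroked Rag2-/- and WT mice edgeR called 0 of 10 members, where 0.00587% of all genes were called. There, 0 members had an unadjusted p below 0.05, against 349 of all genes, and DESeq2 called 0 members. The log2 differences ran from -0.03 for Crh to 0.18 for Sst.

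**Figure D3:**
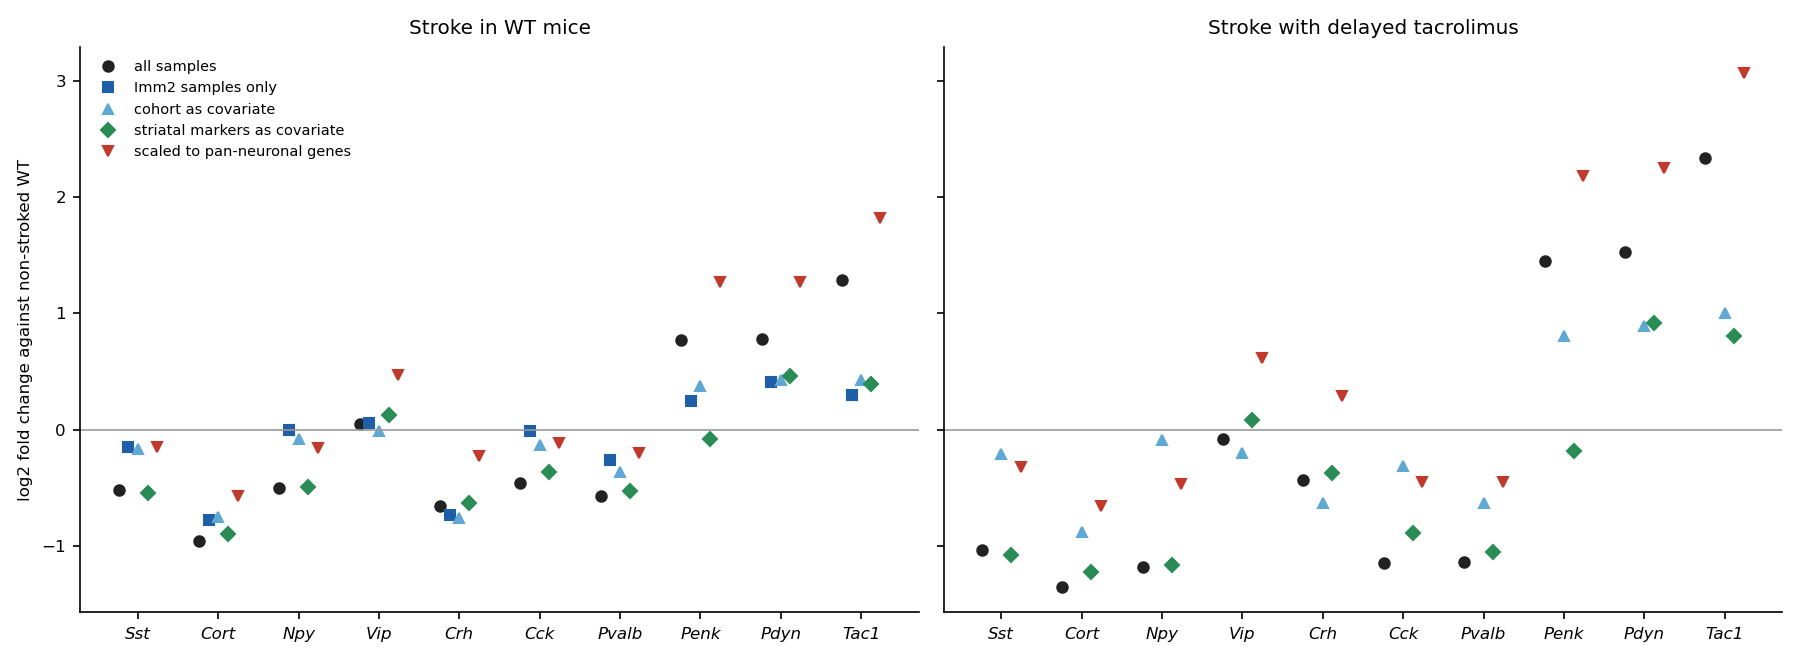
Log2 fold change against non-stroked WT mice (vertical axis) for the 10 genes after stroke in WT mice and with delayed tacrolimus, under the fit of all samples and 4 other settings marked by symbol. Npy moves from -0.50 to 0.00 in WT mice with Imm2 samples only, and Penk from 1.45 to -0.18 with delayed tacrolimus once striatal markers are a covariate. The Imm2 setting is absent on the right because delayed tacrolimus samples are all TF.

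Scaling decided part of the picture. Scaled to 20 pan-neuronal genes instead of all genes, the median of all genes moved by 0.42 (log2) for stroke in WT mice and by 0.72 with delayed tacrolimus, so that changes are then relative to other neuronal transcripts. In WT mice Sst was then at -0.15, Npy at -0.16 and Cort at -0.57 (adjusted p = 0.0351), and Crh was no longer called, at -0.23. Pdyn was at 1.27 (adjusted p = 0.0038) and Tac1 was newly called, at 1.82 (adjusted p = 0.0247). With delayed tacrolimus Sst was at -0.32 (adjusted p = 0.0378) and Npy at -0.47 (adjusted p = 0.016), both still called, Pvalb at -0.45 was not, Vip at 0.62 was called higher (adjusted p = 0.00602), and Crh changed sign to 0.29 without a call.

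Across the 29 samples, the members fell into a group around Sst and a group around Penk. Levels (log2 CPM) of Sst and Npy correlated with Pearson r = 0.94 and Spearman rho = 0.91 (permutation p = 1e-05 each, the smallest 100000 resamples can give, and adjusted over 55 relations 3.1e-05 and 3.7e-05). Without the 2 samples farthest from the median of Sst r was 0.93, and it was 0.81 within the 20 Imm2 samples and 0.72 within the 9 TF samples. The same smallest p was reached by Cck with Pvalb, Sst with Cort, Penk with Tac1 and the striatal marker sum with Penk, Tac1 and Pdyn. Cck and Pvalb gave r = 0.90 and rho = 0.84 (r = 0.85 without the 2 farthest samples), with 0.84 in Imm2 and 0.95 in TF. Sst and Cort were less close, at r = 0.73 and rho = 0.71 (r = 0.65 without the 2 farthest samples), with 0.46 in Imm2 and 0.71 in TF. The p-values belong to r and rho over all 29 samples, which also hold differences between groups. With group means removed, r was 0.95 for Sst with Npy, 0.83 for Cck with Pvalb and 0.59 for Sst with Cort. Both genes of a pair were read from the same libraries, with the same depth.

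Penk and Tac1 gave r = 0.92 and rho = 0.92 (r = 0.90 without the 2 farthest samples), with 0.98 within each cohort. Penk and the striatal marker sum gave r = 0.98 and rho = 0.98, with 0.98 in Imm2, 1.0 (rounded) in TF and 0.99 after group means were removed. The same sum gave r = 0.95 with Tac1 (rho = 0.95) and 0.82 with Pdyn (rho = 0.84), and without the 2 farthest samples r was 0.97, 0.94 and 0.81 for the 3 genes. Vip and Crh had lower r with the other members over all samples, and higher r with some of the Sst group within cohorts. Vip and Pvalb gave r = 0.60 (rho = 0.54, permutation p = 0.00054 and 0.0027, adjusted 0.0013 and 0.0054, r = 0.58 without the 2 farthest samples), with 0.73 in Imm2 and 0.85 in TF. Vip and Cck gave r = 0.44 (rho = 0.50, permutation p = 0.017 and 0.0063, adjusted 0.028 and 0.01, r = 0.41 without the 2 farthest samples), with 0.73 in Imm2 and 0.90 in TF. Crh and Pvalb gave r = 0.47 (rho = 0.58, permutation p = 0.01 and 0.0011, adjusted 0.017 and 0.0027, r = 0.36 without the 2 farthest samples), with 0.72 in Imm2 and 0.18 in TF. Crh and Vip gave r = 0.54, with 0.60 in Imm2 and 0.41 in TF. The relation of Crh with Vip rested on 2 samples, with rho = 0.31 (permutation p = 0.1, adjusted 0.13) and r = 0.23 without them. Pairs of the Sst group with Penk, Tac1 or Pdyn had negative r over all samples. For Sst and Npy the sign differed between the cohorts, as in Sst with Tac1 at r = -0.49 and rho = -0.41 (permutation p = 0.0072 and 0.029, adjusted 0.012 and 0.042, r = -0.40 without the 2 farthest samples), against 0.38 in Imm2 and -0.35 in TF. For Cort and Cck it was negative in both cohorts, as in Cort with Tac1 at r = -0.69 and rho = -0.68 (permutation p = 5e-05 and 8e-05, adjusted 0.00014 and 0.00023, r = -0.65 without the 2 farthest samples), with -0.39 in Imm2 and -0.81 in TF. Over all samples, r also holds differences between groups. After group means were removed, r was 0.01 for Sst with Tac1 and -0.43 for Cort with Tac1.

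**Figure D4:**
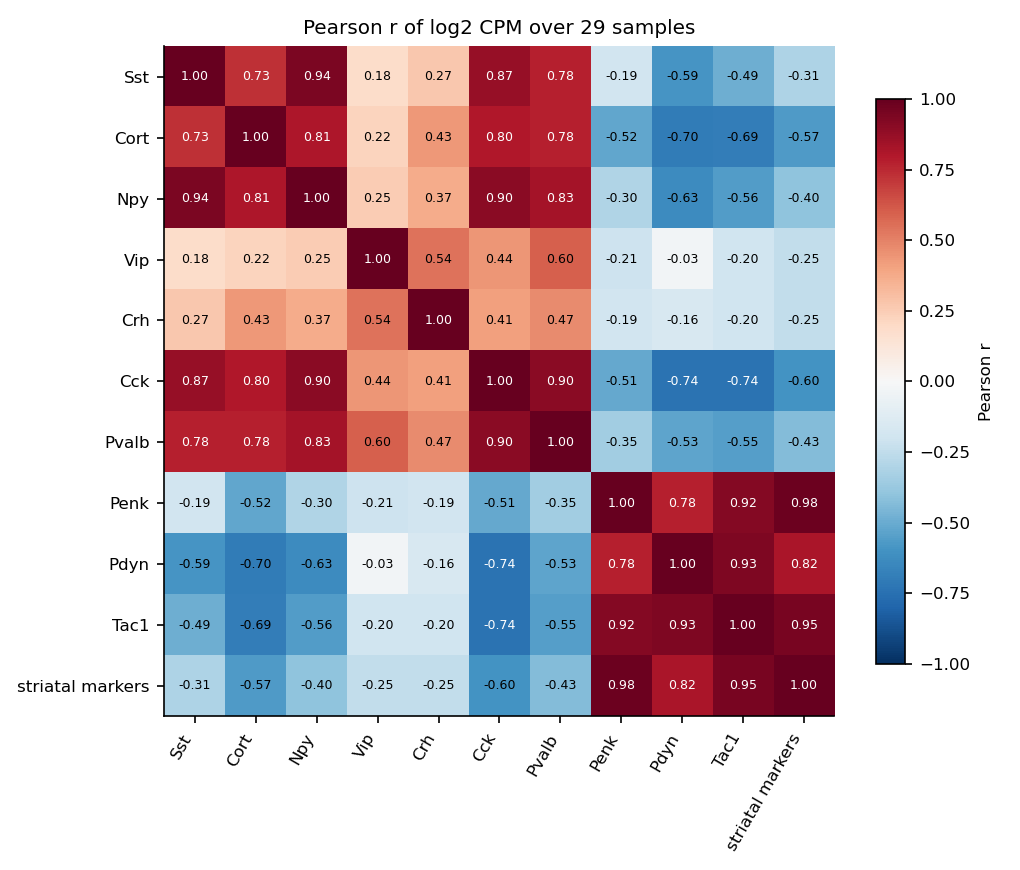
Pearson r of log2 CPM over the 29 samples for each pair of the 10 genes and the sum of 5 striatal markers, written in each cell and coloured from blue (-1) to red (1). Sst, Cort, Npy, Cck and Pvalb form a block of r from 0.73 to 0.94, and Penk, Pdyn, Tac1 and the striatal markers one of 0.78 to 0.98.

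**Figure D5:**
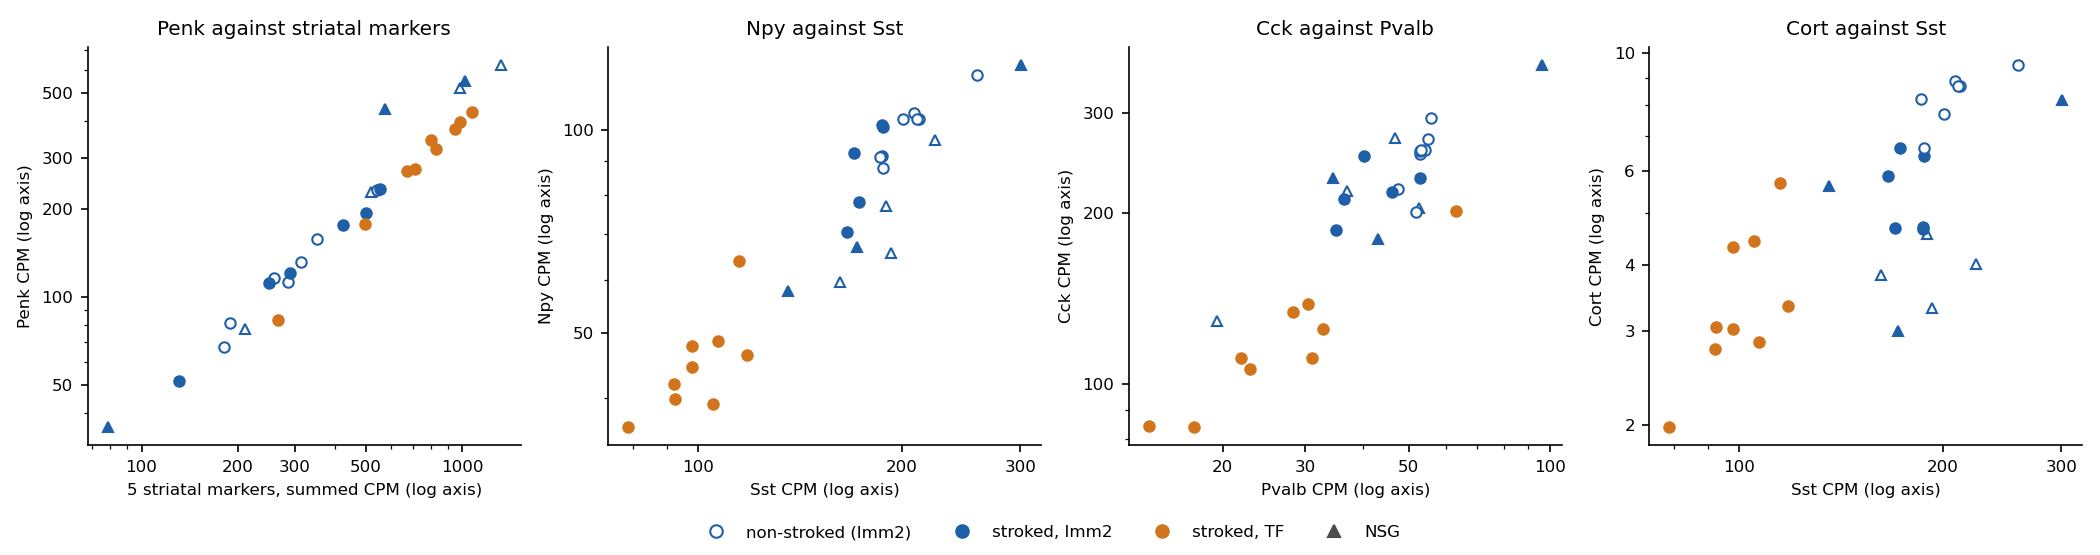
Levels in each of the 29 samples (CPM, both axes logarithmic) of Penk against the striatal marker sum, Npy against Sst, Cck against Pvalb and Cort against Sst, with open symbols for non-stroked and filled for stroked samples, orange for TF and triangles for NSG. Penk follows the striatal markers in every group, with r = 0.98, and the 4 open triangles lie at low Cort for their Sst level, at 3.32 to 4.57 CPM.

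The genes with the most similar pattern, by Pearson r of log2 CPM over the 29 samples among all tested genes that are no members, give a description of likeness only. For Penk these were Ppp1r1b (0.981), which codes for the dopamine-regulated phosphoprotein DARPP-32, and Gpr6 (0.971), a receptor of striatal neurons. For Tac1 they were Pde1b (0.985) and Asic4 (0.97), and for Pdyn Ccm2 (0.923) and Ppp1r2 (0.91). Sst was nearest to Tceal5 (0.976) and Myl12b (0.965), Npy to Tusc2 (0.965) and Vcpkmt (0.963), Cck to Khdrbs3 (0.969) and Tmem151b (0.956), and Pvalb to Nkiras1 (0.95) and Tagln3 (0.95). The likeness was weaker for Cort (Nudt3, 0.884, and Dnajc21, 0.871), Vip (Tspan17, 0.87, and Ensa, 0.826) and Crh (Ss18l2, 0.753, and Dnaja1, 0.741).

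Receptors for these peptides were measured in the same samples. Of 22 tested receptor genes, 2 were higher and 4 lower after stroke in WT mice (median -0.14), and 6 higher and 7 lower with delayed tacrolimus (median -0.04). Over all genes 15.2% were higher and 11.6% lower after stroke in WT mice, and 27.6% each way with delayed tacrolimus, so the receptors' share called was near that of all genes. In Rag2-/-, NSG and acutely treated mice 0 were higher and 2, 4 and 1 lower, where 8.23%, 21.9% and 8.54% of all genes were called. Npy1r, the receptor for neuropeptide Y on many cortical neurons, fell by 0.7 ± 0.114 in WT mice (adjusted p = 0.000112), by 0.79 ± 0.107 with delayed tacrolimus (adjusted p = 3.11e-06) and by 0.43 ± 0.13 in Rag2-/- mice (adjusted p = 0.0371). Cckbr, the main brain receptor for cholecystokinin, fell by 1.05 ± 0.215 in WT mice (adjusted p = 0.00107) and by 1.45 ± 0.204 with delayed tacrolimus (adjusted p = 4.21e-06).

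Of the opioid receptors, Oprd1, which binds enkephalins, fell by 0.56 ± 0.127 in WT mice (adjusted p = 0.00253), by 0.79 ± 0.12 with delayed tacrolimus (adjusted p = 1.17e-05) and by 0.47 ± 0.138 in NSG mice (adjusted p = 0.0166). Oprk1, which binds dynorphins, rose by 1.62 ± 0.468 with delayed tacrolimus (adjusted p = 0.00531), and Oprm1 fell by 1.41 ± 0.398 in NSG mice (adjusted p = 0.0135). Vipr2, which binds the Vip peptide, rose by 3.77 ± 0.844 in WT mice (adjusted p = 0.0022), while Vipr1 was at -0.22 and Sstr2, a somatostatin receptor, at -0.26, neither called. Tacr1, the substance P receptor, rose with delayed tacrolimus by 2.09 ± 0.566 (adjusted p = 0.0033). It was also higher in non-stroked NSG than in WT mice, by 1.81 ± 0.579 (adjusted p = 0.0469). Crhr1 fell by 0.79 ± 0.173 in Rag2-/- mice (adjusted p = 0.00449), and Npy2r by 1.49 ± 0.445 with acute tacrolimus (adjusted p = 0.039).

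Genes that cut and pack peptides were also counted. Of 21 tested, 1 was higher and 7 lower after stroke in WT mice (median -0.28), and 2 higher and 13 lower with delayed tacrolimus (median -0.37), where 11.6% and 27.6% of all genes were lower. Vgf, a granule protein whose gene is induced by activity, fell by 0.8 ± 0.166 in WT mice (adjusted p = 0.0012), Pcsk1, a proprotein convertase, by 0.6 ± 0.149 (adjusted p = 0.00493), and Cadps, which primes dense core vesicles, by 0.37 ± 0.095 (adjusted p = 0.00607). Cpe, the carboxypeptidase that trims cut peptides, rose by 0.39 ± 0.108 (adjusted p = 0.0105). In Rag2-/-, NSG and acutely treated mice 1, 5 and 0 of these 21 genes were called, against 8.23%, 21.9% and 8.54% of all genes.

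Of 24 other neuropeptide precursors tested, 4 were higher and 1 lower after stroke in WT mice (median 0.10), and 11 higher and 3 lower with delayed tacrolimus (median 0.43). The share called, both directions pooled, was near the 26.9% and 55.2% of all genes. By direction, more of these precursors were higher than lower with delayed tacrolimus, whereas over all genes 27.6% were called each way. Nmb, the neuromedin B precursor, rose by 1.71 ± 0.401 after stroke in WT mice (adjusted p = 0.00323). In the same WT comparison Prok2 rose by 2.67 ± 0.817 (adjusted p = 0.0183) and Nppa by 3.55 ± 1.13 (adjusted p = 0.022). Adcyap1, the PACAP precursor, fell there by 0.68 ± 0.211 (adjusted p = 0.0196). Hypothalamic markers (Oxt, Avp, Hcrt, Pmch, Pomc, Agrp), which this list holds too, summed to 1.91 to 3.13 CPM in WT mice with or without stroke and reached 51.8 CPM in 1 delayed tacrolimus sample, 36.4 CPM in 1 stroked NSG sample and 16.4 CPM in 1 non-stroked NSG sample.

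General markers of GABAergic neurons overlapped between non-stroked and stroked WT mice. Gad1 and Gad2, which make GABA, and Slc32a1, which loads it into vesicles, summed to 526 to 591 CPM in non-stroked WT mice, 449 to 851 CPM in stroked WT mice and 541 to 800 CPM with delayed tacrolimus. Their log2 fold changes after stroke in WT mice were 0.24, 0.02 and -0.06, and none was called. In Rag2-/- mice the sum was 493 to 552 CPM without stroke and 421 to 428 CPM after stroke. It did not overlap and was lower after stroke as Sst was, in a comparison where 35.7% of all genes did not overlap. The log2 fold changes of the markers were -0.37, -0.13 and -0.36 and none was called. In NSG mice the sum was 543 to 869 CPM without and 347 to 630 CPM after stroke. Striatal projection neurons are GABAergic too, and the part of the striatal markers in these sums was not tested. Of 39 tested genes of GABAergic neurons, 3 were higher and 7 lower in WT mice (median 0.02) and 4 higher and 14 lower with delayed tacrolimus (median -0.07), against 26.9% and 55.2% of all genes called in either direction. In NSG mice 2 were higher and 9 lower after stroke (median -0.35), where 21.9% of all genes were called in either direction. Kcnc1, a potassium channel of fast-spiking cells, fell by 0.64 ± 0.117 after stroke in WT mice (adjusted p = 0.000339). In the same WT comparison Erbb4 fell by 0.6 ± 0.153 (adjusted p = 0.00566) and Syt2, a synaptotagmin of Pvalb terminals, by 0.85 ± 0.218 (adjusted p = 0.00593). Igf1 rose there by 1.33 ± 0.342 (adjusted p = 0.00612), and which cells carried this rise in bulk tissue was not tested. Lhx6, a transcription factor of Sst and Pvalb interneurons, was at -0.42 in WT mice (adjusted p = 0.0601) and fell by 0.55 ± 0.156 with delayed tacrolimus (adjusted p = 0.00479).

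Other neuronal lists were counted in the same comparisons, where 11.6% of all genes were lower after stroke in WT mice and 27.6% with delayed tacrolimus. Of 20 pan-neuronal genes 0 were higher and 11 lower after stroke in WT mice (median -0.36), and 0 higher and 19 lower with delayed tacrolimus (median -0.69), with Rbfox3, a marker of mature neurons, at -0.62 ± 0.166 (adjusted p = 0.00832) and -1.04 ± 0.156 (adjusted p = 9.84e-06). Elavl4, Nefm, Nefh and Elavl3 fell after stroke in WT mice, with log2 fold changes of -0.78, -0.81, -0.76 and -0.3. Of 19 genes of cortical glutamatergic neurons 6 were lower and 0 higher in WT mice (median -0.49) and 16 lower and 1 higher with delayed tacrolimus (median -1.03). Tbr1, a transcription factor of cortical projection neurons, fell by 0.91 in WT mice. The glutamatergic marker sum also split by cohort in stroked WT mice, at 1590 and 1440 CPM in Imm2 and 978 and 914 CPM in TF. Of 18 activity-regulated genes 14 were lower and 0 higher in both comparisons (median -1.13 and -1.04), and Egr1, Egr3, Egr4 and Nr4a1 fell by 1.47, 1.15, 1.3 and 1.36 in WT mice. In non-stroked NSG mice 11 of these 18 were lower and 0 higher than in WT mice (median -0.85), where 9.76% of all genes were called.

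Glial and immune lists gave the setting of these changes. After stroke in WT mice 11 of 12 astrocyte reactivity genes (median 2.87), 14 of 15 microglia and macrophage genes (median 2.09), 6 of 11 fibroblast genes (median 1.37) and 9 of 10 T and NK cell genes (median 2.81) were higher, against 15.2% of all genes, and none of these lists held a lower gene. Among other regions, 0 of 12 thalamic genes were higher and 2 lower (median -0.12), 2 of 10 hypothalamic genes higher and 0 lower (median 0.30), 0 of 11 hippocampal genes higher and 1 lower (median -0.05), 0 of 17 striatal genes higher and 1 lower (median 0.88) and 0 of 10 choroid plexus genes called (median -1.09). The median over all genes tested was 0.0 in this comparison. Their part in the members' changes was not tested.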

How the data were processed

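The values deposited by the authors are raw counts of reads per gene, 1 table for each of 29 samples and 25746 Ensembl genes. Per the methods, the authors made stranded libraries from polyA RNA, and a core facility did the alignment and counting. The aligner and genome build are not given in the sources used here. GENCODE M21 (GRCm38) supplied gene names and coordinates for 25712 IDs, and 34 had none. Penk shares 233 exon bases with an antisense RNA absent from the counts.

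Groups came from the sample labels. Counts were tested with edgeR 4.0.16 in R 4.3.3 (TMM, filterByExpr by group, quasi-likelihood, 1 fit of 8 groups, Benjamini-Hochberg over 17031 genes), and SE is the log2 fold change divided by the square root of F. CPM uses the TMM-adjusted library, and log2 CPM a prior count of 2. Alternatives included DESeq2 1.42.0, other normalizations and filters, cohort and striatal covariates, a replicate block and leaving out samples. In simulated data of 16679 genes for stroke in WT mice, 84 of 100 genes changed 2-fold and 99 of 100 changed 4-fold were recovered, with 4 false calls. The simulation gave every gene the same spread between replicates and no cohort difference. In the data, the SE of the members for stroke in WT mice ran from 0.217 (Sst) to 0.621 (Penk). The simulated shares therefore need not hold for the members. Replicates differed beyond sampling noise in all 40 pairs (chi-square per degree of freedom from 7.96 to 167).

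Genes named are the 10 members, the 4 with the smallest adjusted p per list for stroke in WT mice (glial, immune and regional lists are given as counts), fixed receptor and marker genes, and the 2 nearest patterns per member. Members and lists were chosen with earlier results of these data known. Some genes of the marker lists are not reported here and were left out of the lists and sums.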

Additional observations from a re-analysis of the deposited data

Results flagged for a closer look

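Of 40 groups of 4 or 5 samples (10 genes in 4 groups) tested for a sample far from the others, 2 held one, and chance gives about 1 in 20. Cort in stroked WT mice had its lowest sample at 2.78 CPM, with a gap of 0.863 of the range of the 4 samples. Tac1 in non-stroked WT mice had its lowest sample at 7.53 CPM, with a gap of 0.899 of the range of the 4 samples.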

How the results depend on the processing

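The number of the 10 genes called changed with the cohort settings and with other settings. With the cohort as a covariate it was 0 for stroke in WT mice, 0 with acute tacrolimus, 0 with delayed tacrolimus and 0 for delayed against acute tacrolimus. With Imm2 samples only it was 0 for stroke in WT mice, and with TF samples only, chosen after seeing the data, 0 for delayed against acute tacrolimus. These 2 fits also held fewer samples, with 2 stroked WT samples in Imm2 and 2 acutely treated samples in TF. Acute tacrolimus had 1 sample in Imm2, where the log2 fold change of Pdyn was 0.59 in place of 0.98. Fitting only the groups compared gave 5 for stroke in WT mice, 2 for stroke in Rag2-/- mice, 0 with acute tacrolimus, 2 for non-stroked NSG against WT mice and 0 for delayed against acute tacrolimus. Scaling to pan-neuronal genes gave 2 with acute tacrolimus (Pdyn and Vip). For delayed against acute tacrolimus it gave 1, which was Pdyn, newly called at 0.97, while Cck at -0.31 and Pvalb at -0.53 lost their calls. Striatal markers as a covariate, chosen after seeing the data, gave 1 for stroke in WT mice (Cort), 1 for stroke in NSG mice (Penk, at 0.58), 1 for delayed against acute tacrolimus, and a log2 fold change of -0.18 in place of 1.45 for Penk with delayed tacrolimus. A minimum fold change of 2 gave 0 for stroke in WT mice, 0 with acute tacrolimus and 1 for delayed against acute tacrolimus. DESeq2 gave 4 for delayed against acute tacrolimus and 1 (Cort) for the NSG against the WT response, and no filter on low counts gave 0 with acute tacrolimus. Apart from the settings themselves (fewer samples, fewer genes, another scale), the cause of these shifts was not tested. The counts here and in the fits that leave out samples are of members only. The share of all genes called in the same fits is not set beside them, so they do not describe the members apart from all genes.

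As single samples were left out, the number called ran from 1 to 4 for stroke in WT mice (4 without stroked sample 2, which added Sst and Npy), from 0 to 3 with acute tacrolimus (3 without treated sample 1), from 7 to 8 with delayed tacrolimus, from 0 to 2 for stroke in NSG mice and for the NSG against the WT response (2 without stroked NSG sample 3), from 0 to 2 for delayed tacrolimus against untreated stroke (2 without stroked WT sample 4) and from 0 to 6 for delayed against acute tacrolimus. Cort in non-stroked NSG mice was called in every such fit. Of 274 refits of the 16 called values, 199 kept the call and direction, 74 lost the call and 1 reversed.

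Non-stroked groups share replicate numbers in their titles. Deviations of same-numbered samples correlated between -0.223 and 0.346, and not every pair exceeded 0.1, so the numbers were not taken as pairs. A replicate block gave 1 call for Rag2-/- against WT mice (Penk, at 0.52) and 2 for NSG against Rag2-/- mice (Cort and Npy), and changed no other call among non-stroked groups.

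Pan-neuronal scaling also moved the median of all genes by 0.3 for stroke in Rag2-/- mice, 0.18 in NSG mice and 0.25 with acute tacrolimus. Cort and Crh have the fewest counts of the members, and groups held 3 to 5 samples.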
